A study of Mus musculus with 8 samples.

Results

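Long intergenic non-coding RNAs (lincRNAs) were followed in the mouse thyroid around the genes that the tumour suppressor p53 switches on after DNA damage. A lincRNA region of the array counted as near a p53 target gene when the interval that its annotation names, in mouse build mm9, lay within 1 Mb of a probe for any of 28 p53 target genes. This rule took 139 of the 3555 lincRNA regions on the array. They carried 692 of its 16251 lincRNA probes, and 47 of them were probed on both strands and 92 on 1 strand, which made 186 region strands. Many regions overlap or lie inside one another, and joined together they form 73 separate stretches, so neighbouring probes and regions are not independent. The regions ran from 275 to 317849 bases (median 7304), with 1 to 10 probes per region strand (median 3). They surrounded 22 of the 28 genes. No region lay within 1 Mb of Apaf1, Bax, Ccng1, Fas, Rprm or Zmat3.

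The arrays compared 4 thyroids of mice given pertechnetate (99mTcO4-), a radioactive anion that thyroid cells take up through the sodium/iodide symporter, with 4 thyroids of control mice. The thyroids of the exposed mice had received 30 Gy, and RNA was taken 24 hours after administration from female BALB/c mice aged 8 weeks. The controls are described in one place as untreated and in another as given saline, and no engineered allele is stated for either group. Numbers 1 to 4 denote the controls, and S539, S588, S589 and S590 the exposed thyroids. Each one-colour array held 1 labelled thyroid RNA, so a spot's brightness follows the RNA that its probe binds, and levels below are log2 of the background-subtracted signal after quantile normalization. All 8 arrays lay on 1 slide with the exposed thyroids in the first positions, which means that an effect of position and one of exposure cannot be told apart. Between 60.5% and 77.3% of the spots were well above background. Thyrocyte marker genes averaged 11.6 to 12.4 on the control arrays and 11.1 to 11.3 on the exposed arrays. Of these 11 genes 2 were called lower, at a limma adjusted p of at most 0.05. Over all RefSeq genes, 1.22% were called in either direction. In whole thyroids, fewer cells of a type and less RNA per cell cannot be told apart. The T cell and thymocyte markers stood high in control 1 (11.5) and control 2 (10.5) and lay between 6.82 and 8.06 in the other 6 thyroids. Macrophage markers averaged 10.2 to 10.6 in the controls and 9.66 to 10.1 in the exposed thyroids, and 1 of 8 was called lower. Skeletal muscle markers stood at 14.6 in S539 and 14.7 in S589, and at 15.9 to 17.2 in the other 6 thyroids, and none of the 8 was called. The part of these marker lists in the results was not tested.

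A lincRNA is a transcript without a long open reading frame that is made from its own start site between protein-coding genes. Some are themselves p53 targets. The best known in the mouse is lincRNA-p21, which is transcribed from the opposite strand upstream of Cdkn1a, the gene of the cyclin-dependent kinase inhibitor p21. When p53 is stabilised by DNA damage it binds paired decamers, called half-sites, in the control regions of its targets. These include inhibitors of its own activity such as Mdm2 and Mdm4, death genes such as Bbc3 and Pmaip1, and arrest genes such as Cdkn1a and Btg2.

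The probes that carried the clearest changes are short oligonucleotides of known position, and their sequences follow as the array prints them, 5' to 3'. A first set of 4 probes abuts end to end on the reverse strand upstream of Cdkn1a, from chr17:29207178 to 29207417 (mm9), and reads 240 consecutive bases of 1 region. They are given because neighbouring probes of this run responded to different degrees. Capitals mark a stretch of 13 bases that occurs in duplicate within 1 probe. None of the other probes printed here holds a repeat of 10 or more bases.
A_30_P01022991 (chr17:29207358-29207417): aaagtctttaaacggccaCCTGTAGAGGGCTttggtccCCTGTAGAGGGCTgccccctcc
A_30_P01022528 (chr17:29207298-29207357): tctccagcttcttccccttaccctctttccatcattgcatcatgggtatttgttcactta
A_30_P01020960 (chr17:29207238-29207297): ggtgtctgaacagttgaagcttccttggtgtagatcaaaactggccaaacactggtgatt
A_30_P01027010 (chr17:29207178-29207237): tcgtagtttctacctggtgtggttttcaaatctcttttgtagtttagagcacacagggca

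The array has its own probes for the transcript it names lincP21, which lie 12.0 kb further from Cdkn1a on the same strand. The brightest lincP21 probe in the exposed thyroids is shown for comparison.
A_30_P01021484 (chr17:29194593-29194652): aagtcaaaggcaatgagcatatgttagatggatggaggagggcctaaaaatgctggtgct

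Beside Mdm4, the probes of a small region on the strand of Mdm4 and those of the opposite strand that rose are given, because both strands were called there.
A_30_P01032960 (chr1:134883351-134883410, reverse strand): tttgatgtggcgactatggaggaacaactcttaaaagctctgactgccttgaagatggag
A_30_P01032509 (chr1:134883518-134883577, reverse strand): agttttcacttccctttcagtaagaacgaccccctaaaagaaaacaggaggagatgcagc
A_30_P01028413 (chr1:134883808-134883867, forward strand): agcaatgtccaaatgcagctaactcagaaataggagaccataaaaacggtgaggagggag
A_30_P01021594 (chr1:134883878-134883937, forward strand): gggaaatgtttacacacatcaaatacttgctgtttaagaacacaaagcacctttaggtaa
A_30_P01023534 (chr1:134883962-134884021, forward strand): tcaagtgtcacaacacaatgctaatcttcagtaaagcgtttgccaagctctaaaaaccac

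The probes of the region in the Dcxr window were the remaining group that rose together.
A_30_P01022177 (chr11:120086860-120086919, reverse strand): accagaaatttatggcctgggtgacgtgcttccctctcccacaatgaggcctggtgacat
A_30_P01032753 (chr11:120087028-120087087, reverse strand): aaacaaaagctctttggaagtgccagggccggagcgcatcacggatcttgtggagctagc
A_30_P01026107 (chr11:120087116-120087175, reverse strand): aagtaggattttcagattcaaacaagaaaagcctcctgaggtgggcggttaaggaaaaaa
None of these probes shares a run of 20 bases with another probe of the array on either strand, and none holds a p53 half-site. Over all probes, a half-site stood in 2.60% of the 692 and in 1.82% of all lincRNA probes.

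Of the 692 probes, 18 differed between exposed and control thyroids at an adjusted p of at most 0.05 (limma, Benjamini-Hochberg over 55681 probes). Of these, 17 were higher in the exposed thyroids and 1 was lower. This is 2.60% of the probes near p53 target genes, where the background was 0.455% of all lincRNA probes and 0.781% of all probes on the array. The higher calls were 2.46% of the 692 against 0.332% of all lincRNA probes. The 18 probes came from 8 regions in 7 separate stretches, and 11 of them came from the regions beside Cdkn1a and Mdm4. Without the regions within 50 kb of those genes, 7 of 651 probes (1.08%) were called. At an unadjusted p under 0.05, the share was 12.0% of the 692 probes and 12.2% of all probes. The groups did not overlap in 57 of the 692 probes (8.24%), against 6.63% of all lincRNA probes and 9.11% of all probes. Set against all probes, the difference therefore lay in a few probes that passed the adjustment and not in the share of probes with small p. Set against lincRNA probes alone, the share without overlap was higher near p53 target genes. The share of all lincRNA probes at an unadjusted p under 0.05 is not given here. Taken as means over the probes of a region strand, 3 of 186 strands were called (1.61%, background 0.411% of 4622), all higher: 1 beside Cdkn1a, 1 beside Mdm4 and 1 of a single probe near background in the Ephx1 window.

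The median log2 fold change of the 692 probes, exposed minus control, was 0.11, beside 0.07 over all lincRNA probes and 0.01 over all probes. Much of the set lay near background. A probe was counted as detected when all 4 arrays of a group showed it well above background, as was so for 374 of the 692 probes (54.0%), for 50.4% of all lincRNA probes and for 64.9% of all probes. On no array were 116 of the 692 well above background, and 28 of the 139 regions had no detected probe. Among detected probes the median was 0.18 near p53 target genes and 0.13 over all lincRNA probes, and of the 18 calls 15 were detected. A dim probe could pass this filter through only the group where it was higher, so values of detected probes are no support for a rise. Of the detected probes near p53 target genes 71.1% were higher in the exposed thyroids, and of those not detected 52.2%.

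The number of calls changed with the array left out. With control 2 left out 2 probes were called, with S590 left out 2, with S589 5 and with S539 6. Without control 4 it was 7, without control 3 8, without S588 11 and without control 1 12. In the 18 called probes no direction turned when an array was left out, and A_30_P01027010, upstream of Cdkn1a, was called in all 8 such fits. In the authors' deposited values, 17 of the 692 probes (2.46%) were called, all higher, where 1.06% of all lincRNA probes were called. Of the 18 calls, 14 were also made there.

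**Figure D1:**
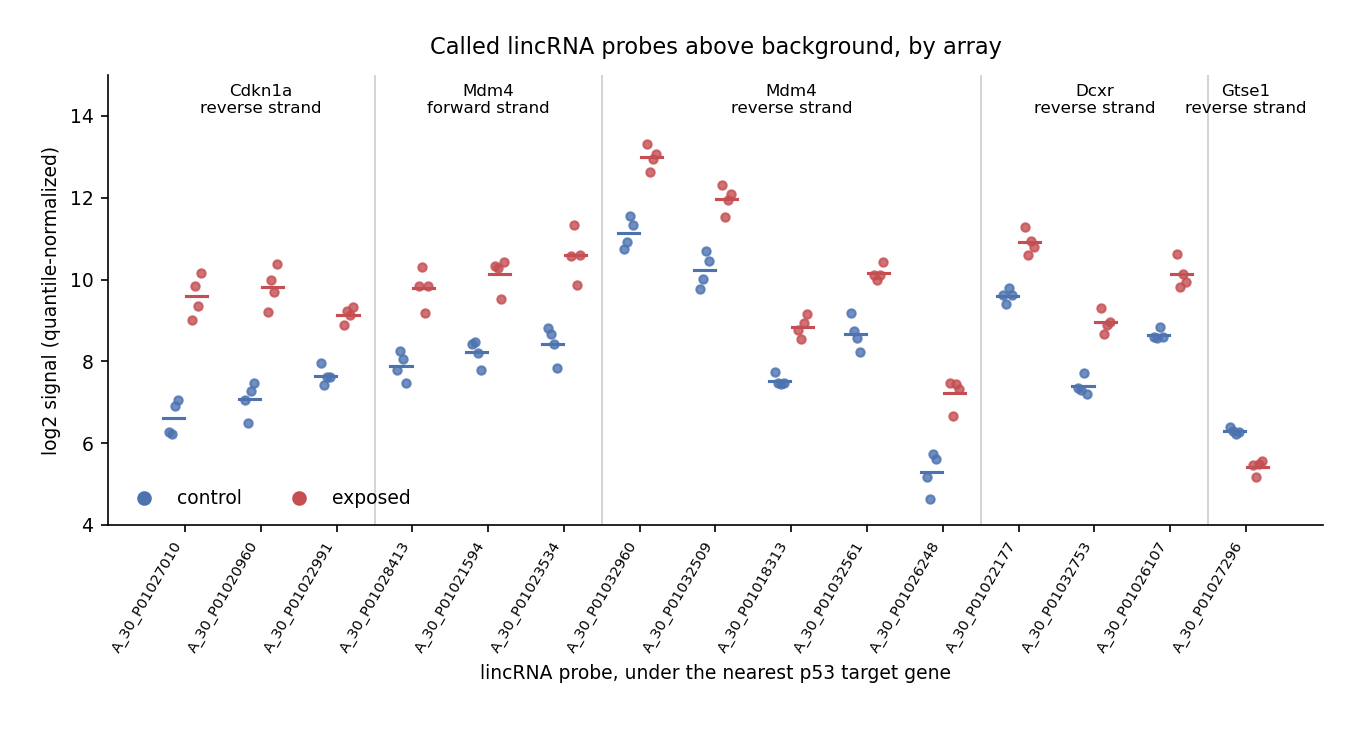
Log2 signal of the 15 called and detected lincRNA probes on each of the 8 arrays (points) with group means (bars), under the nearest p53 target gene and the strand probed. In 14 probes every exposed thyroid lay above every control, and in A_30_P01027296, near Gtse1, every exposed thyroid lay below.

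The calls fell mostly close to the genes. Within 50 kb of a p53 target gene lay 82 probes of 16 regions around 7 genes. Of these probes, 11 (13.4%) were called, all higher, and the 11 lay in 3 regions beside Cdkn1a and Mdm4. From 50 to 250 kb, 1 of 163 probes was called (0.613%). From 250 to 500 kb, 4 of 121 were called (3.31%), of which 3 came from 1 region. From 500 to 1000 kb, 2 of 326 were called (0.613%). The background of 0.455% of lincRNA probes applies to each bin. The median log2 fold change of detected probes was 0.45 within 50 kb, 0.13 from 50 to 250 kb, 0.21 from 250 to 500 kb and 0.14 from 500 to 1000 kb, beside 0.13 for all detected lincRNA probes. Without the filter on detection these medians were 0.28, 0.09, 0.20 and 0.06, beside 0.07 for all lincRNA probes. Over the 374 detected probes, the log2 fold change and the distance had a Spearman correlation of -0.21 (Pearson -0.28), and over the 322 beyond 50 kb it was -0.09. These are descriptions across probes, many of which share a region and a gene. Those of detected probes also carry the limit of the filter on detection. At the limit of the rule, the last region inside lay 964 kb from Polk, with probe log2 fold changes of -0.55 to 1.58 and a lowest adjusted p of 0.23. The first region outside lay 1010 kb from the same gene, with -0.18 to 0.47 and a lowest adjusted p of 0.41. It lies within the interval of the last region inside, which reaches beyond 1 Mb, so they are not separate stretches.

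**Figure D2:**
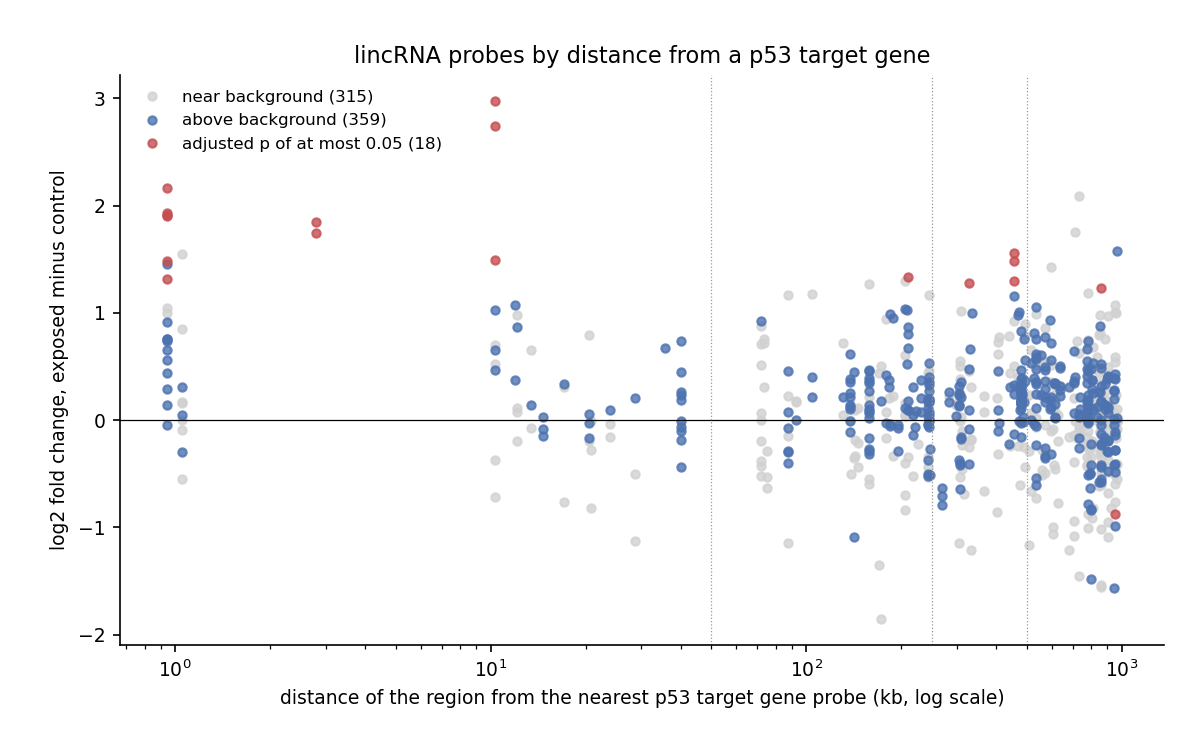
Log2 fold change of each of the 692 lincRNA probes against the distance of its region from the nearest p53 target gene probe (kb, log scale), with dotted lines at 50, 250 and 500 kb. Grey points lacked a signal well above background in at least 1 array of each group. The 18 called probes (red) include 11 within 50 kb, the highest at 2.98 beside Cdkn1a.

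Upstream of Cdkn1a, the reverse strand of the region chr17:29183003-29217681 held the largest rises of the 692 probes. The region ends 10.3 kb from the nearest Cdkn1a probe, and the reverse strand is opposite to the strand of Cdkn1a. Probe A_30_P01027010 read 6.28, 6.22, 6.90 and 7.05 in controls 1 to 4, and 9.01, 9.84, 9.35 and 10.2 in S539, S588, S589 and S590. Every exposed thyroid was above every control, by a gap wider than the range of either group. Its level rose by 2.98 ± 0.31 on the log2 scale (SE, n = 4 and 4), 7.86-fold, with an adjusted p of 0.0089 in limma. The adjoining A_30_P01020960 read 7.07, 6.49, 7.27 and 7.48 in the controls and 9.21, 9.98, 9.70 and 10.4 in the exposed thyroids, a rise of 2.74 ± 0.31 (limma adjusted p = 0.012). In both probes S590 was the highest and S539 the lowest of the exposed thyroids.

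The other end of the same 240 bases rose less. A_30_P01022991 read 7.97, 7.43, 7.61 and 7.61 in the controls and 8.88, 9.24, 9.13 and 9.33 in the exposed thyroids, and its rise was 1.49 ± 0.17 (limma adjusted p = 0.013). A_30_P01022528, between these probes, read 8.49 to 8.75 in the controls and 9.15 to 9.90 in the exposed thyroids. Its groups did not overlap, but its difference of 1.03 ± 0.19 did not pass the adjustment (limma adjusted p = 0.073, and 0.024 in the deposited values). The fifth probe of this strand, A_30_P01025320, 0.47 ± 0.70, was above background in 2 controls and ranged from 3.63 to 6.80 within them. The mean of the 5 probes was 7.05 ± 0.40 in controls and 8.79 ± 0.18 in exposed thyroids (SD, n = 4 each), a difference of 1.74 ± 0.22 (limma adjusted p = 0.013 over 4622 region strands; exact two-sided permutation p = 0.0286, the smallest that 4 against 4 arrays allow).

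The call of A_30_P01027010 held with each array left out, and that of A_30_P01020960 was lost only without S589 (adjusted p = 0.052). That of A_30_P01022991 was lost without control 2 (0.055), S589 (0.059) or S590 (0.058).

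The forward strand of the region was not called at any of its 5 probes. Their log2 fold changes ran from -0.72 to 0.70, the lowest adjusted p was 0.39, and 1 of the 5 was detected. The signal upstream of Cdkn1a was therefore called on 1 strand, but the difference between strands was not tested.

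The lincP21 probes themselves gave no call. In the array's annotation this transcript spans chr17:29194418-29215906 on the reverse strand, inside the larger region above, but its 5 probes lie together at chr17:29194593-29195160, at the end away from Cdkn1a. Only A_30_P01021484 was well above background in all exposed thyroids. It read 6.22, 5.25, 6.79 and 5.70 in the controls and 7.71, 6.37, 7.20 and 6.16 in the exposed thyroids. These groups overlapped, and the difference was 0.87 ± 0.44 (limma adjusted p = 0.47). A_30_P01027688, which was above background in no control and in 3 exposed thyroids, differed by 0.98 ± 0.60, and the remaining probes by 0.11, 0.08 and -0.20. The mean of the 5 probes was 4.98 ± 0.18 in controls and 5.34 ± 0.19 in exposed thyroids (SD), a difference of 0.37 ± 0.18 (limma adjusted p = 0.50; exact permutation p = 0.057). Between them and Srsf3 lie 2 probes of the nested region chr17:29192453-29216073, also on the reverse strand. A_30_P01019784 read 5.23 to 6.64 in controls and 6.72 to 7.28 in exposed thyroids, without overlap, and A_30_P01021480 read 7.18 to 7.83 and 7.44 to 8.46. Their differences were 1.07 ± 0.33 and 0.38 ± 0.26, and neither was called (limma adjusted p = 0.25 and 0.58). Probes annotated to 1 overlapping group of transcripts thus gave differences from -0.20 to 2.98. Their place and their signal level were not separated, and whether the annotated transcripts are 1 RNA was not tested.

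On the other side of these regions, Srsf3, which encodes a splicing factor, was not called. Its nearest probe, 2.75 kb from the region, differed by -0.39 ± 0.18 (limma adjusted p = 0.43). The 3 Cdkn1a probes rose by 3.83, 3.63 and 2.72. The smallest of these rises was at the probe nearest the lincRNA region, and all 3 were called. This order depended on the processing. The probe that rose by 3.63 was above background in 1 control, and in the deposited values it rose by 2.49. The probe nearest the region rose there by 2.84.

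**Figure D3:**
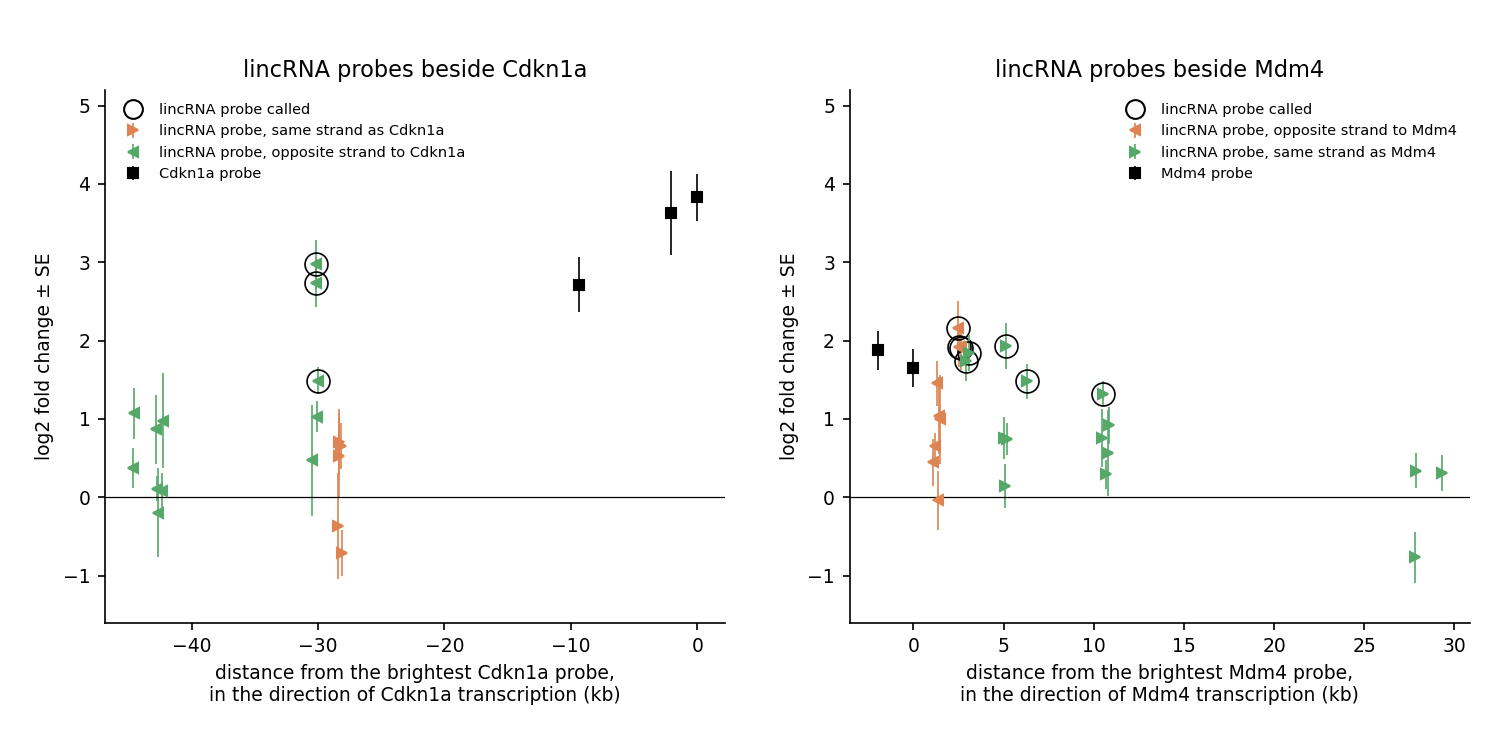
Log2 fold change ± SE of each lincRNA probe within 50 kb of Cdkn1a (left) and Mdm4 (right) against its distance from the brightest probe of that gene, in the direction of the gene's transcription. Triangles pointing right are probes on the gene's strand and those pointing left on the opposite strand, squares are probes of the gene, and circles mark called lincRNA probes, of which there are 3 on the strand opposite to Cdkn1a and 8 beside Mdm4.

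The first window of Cdkn1a in the RefSeq promoter table (GRCm38.p6, 250 bases before to 50 after a transcript start, forward strand, chr17:29090729-29091028) is given because the gene and the run upstream of it rose together. Capitals mark its 2 exact matches to the p53 half-site, a decamer pattern that reads the same on both strands, although a single match need not.
Cdkn1a: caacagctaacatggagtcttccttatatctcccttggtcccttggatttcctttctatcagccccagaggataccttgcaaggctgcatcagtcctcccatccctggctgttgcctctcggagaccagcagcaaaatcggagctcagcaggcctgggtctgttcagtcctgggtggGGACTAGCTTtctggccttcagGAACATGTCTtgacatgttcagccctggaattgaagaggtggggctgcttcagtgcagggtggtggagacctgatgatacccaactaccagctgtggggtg
Of the 28 genes, 23 have a window in that table, and 9 of these hold a half-site in at least 1 of their windows. Counted by window, 29.4% of the 34 windows of these genes hold one, against 8.36% of all 32851 windows. A match is a description of the sequence and not a binding site.

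Mdm4 encodes a relative of Mdm2 that binds and inhibits p53. Its RefSeq probes rose by 1.65 and 1.88, and 8 of the 24 lincRNA probes within 50 kb of it were called, all higher. The small region chr1:134883350-134883624, 275 bases long and 2.80 kb from the nearest Mdm4 probe, is probed on the strand of Mdm4. Its probe A_30_P01032960 read 10.8, 10.9, 11.5 and 11.3 in controls 1 to 4, and 13.3, 12.6, 13.0 and 13.1 in S539, S588, S589 and S590. These were the brightest of the called probes, and the groups did not overlap. The rise was 1.84 ± 0.23 (3.59-fold, limma adjusted p = 0.017), and that of its partner A_30_P01032509 was 1.74 ± 0.26 (limma adjusted p = 0.032), from 9.76 to 10.7 in controls to 11.5 to 12.3 in exposed thyroids. The mean of both probes was 10.7 ± 0.40 in controls and 12.5 ± 0.31 in exposed thyroids (SD), a difference of 1.79 ± 0.24 (limma adjusted p = 0.018; exact permutation p = 0.0286).

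The larger region chr1:134867906-134885481 contains the small one, ends 945 bases from the nearest Mdm4 probe and is probed on both strands. On the forward strand, opposite to Mdm4, 8 of 9 probes had a higher mean in the exposed thyroids, and 3 neighbouring probes were called. A_30_P01023534 read 8.82, 8.67, 8.42 and 7.84 in the controls and 10.6, 11.3, 9.88 and 10.6 in the exposed thyroids, a rise of 2.16 ± 0.34 (limma adjusted p = 0.037). A_30_P01021594 and A_30_P01028413 rose by 1.92 ± 0.25 and 1.90 ± 0.27 (limma adjusted p = 0.021 and 0.029). In all 3 of them, control 4 was the lowest control and S589 the lowest exposed thyroid.

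On the reverse strand, 10 of 10 probes had a higher mean in the exposed thyroids and 3 were called. A_30_P01026248 read 5.18, 4.63, 5.73 and 5.61 in the controls, of which 2 were above background, and 7.46, 6.66, 7.45 and 7.33 in the exposed thyroids. It rose by 1.93 ± 0.30, A_30_P01032561 by 1.48 ± 0.22 and A_30_P01018313 by 1.32 ± 0.17 (limma adjusted p = 0.035, 0.032 and 0.019). In these 3 probes S588 was the lowest exposed thyroid. The other 7 probes differed by 0.14 to 0.92, with a lowest adjusted p of 0.18. Means over all probes of each strand differed by 1.17 ± 0.22 on the forward and 0.89 ± 0.20 on the reverse strand, and neither passed the adjustment (limma adjusted p = 0.076 and 0.15; exact permutation p = 0.0286 for both).

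Another region, chr1:134857123-134869291, 17.1 kb from the nearest Mdm4 probe, had 3 reverse strand probes with differences of 0.34, 0.31 and -0.77, of which none was called and 1 was detected. No mm9 gene model was used here, so on the strand of Mdm4 RNA of the gene itself and of a separate lincRNA cannot be told apart. All 8 calls beside Mdm4 were made in the deposited values, but all 8 were lost without control 2, S539 or S590 (adjusted p = 0.061 to 0.12), 7 without control 4, 6 without control 3 or S589 and 4 without control 1 or S588 (adjusted p = 0.0503 to 0.12).

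Dcxr encodes dicarbonyl and L-xylulose reductase and rose by 2.91. The region chr11:120079199-120130099 lies 457 kb from it, and the RefSeq gene nearest to the region by probe position, Bahcc1, is 23.4 kb away and was not above background on any array (log2 fold change 0.02). On the reverse strand 3 of 5 probes were called. A_30_P01032753 read 7.36, 7.31, 7.72 and 7.19 in the controls and 9.30, 8.67, 8.88 and 8.97 in the exposed thyroids, a rise of 1.56 ± 0.19 (2.95-fold, limma adjusted p = 0.015). A_30_P01026107 rose by 1.48 ± 0.20 and A_30_P01022177 by 1.30 ± 0.18 (limma adjusted p = 0.023 and 0.025). In all 3, S539 was the highest and S588 the lowest exposed thyroid, and the groups did not overlap.

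The calls came from 316 consecutive bases of the 50901 in this region. The other 2 reverse and 4 forward strand probes differed by -0.13 to 1.16, and 4 of these 6 were detected. Other probes of the array lie within the same interval. That of the predicted transcript LOC100503888, on the reverse strand, differed by 1.33 ± 0.25 without overlap of the groups (limma adjusted p = 0.071, and 0.012 in the deposited values). An unnamed transcript's probe on the forward strand, A_55_P2013381, was above background in no control and in 4 exposed thyroids, and was at least 1.94-fold higher in the exposed (measured means 4.04 and 6.05, limma adjusted p = 0.026). The Dcxr window calls were lost without control 2 (adjusted p = 0.065 to 0.096), S589 (0.063 to 0.092) or S590 (0.063 to 0.078), and all 3 were called in the deposited values. Without control 3 (0.055 and 0.058) or control 4 (0.071 and 0.072) 2 of the 3 were lost, and without S539 1 (0.061).

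The last 4 calls rest on weaker signals. A_30_P01026845 and A_30_P01026068, in regions 212 and 910 kb by probe from Ephx1, which encodes microsomal epoxide hydrolase, were above background in no control and in 1 and 2 exposed thyroids. Their measured differences were 1.33 ± 0.19 and 1.23 ± 0.21 (limma adjusted p = 0.029 and 0.046). As a bound, A_30_P01026068 was at least 1.08-fold higher in the exposed thyroids, and no bound above 1 could be given for the other. A_30_P01024843, in a region 329 kb from Gtse1, was well above background on no array (2.85 to 3.01 in controls, 3.89 to 4.40 in exposed). In the deposited values these 3 differed by 0.14, 0.12 and 0.11, and none was called.

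The single fall was that of A_30_P01027296, 953 kb from Gtse1, a gene of microtubule dynamics that is expressed in G2. It read 6.40, 6.30, 6.22 and 6.28 in the controls and 5.46, 5.18, 5.49 and 5.58 in the exposed thyroids, without overlap, and decreased by 0.87 ± 0.14 on the log2 scale (limma adjusted p = 0.037). The nearest RefSeq gene, the nucleoporin gene Nup50, differed by 0.36 ± 0.19. The call was lost with normexp, without background correction and in the deposited values (-0.19, adjusted p = 0.32 to 0.34), with 75th percentile scaling (-0.50, adjusted p = 0.37) and with a variance trend (adjusted p = 0.15). It was also lost with each of the 8 arrays left out in turn (adjusted p = 0.062 to 0.13).

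Around the other 5 genes with a region within 50 kb, no lincRNA probe was called. The 16 probes beside Phlda3, which encodes an inhibitor of Akt, differed by -0.44 to 0.74 (median 0.04), and 12 of them were detected. The 15 probes beside Trp53inp1, whose product acts in p53-dependent death and autophagy, differed by -0.55 to 1.55 (median 0.04), although 1 of its regions lay 1.05 kb from a probe of the gene. The 6 probes beside the antiproliferative gene Btg2 differed by -0.82 to 0.03. The 3 beside Rps27l, which encodes a ribosomal protein-like p53 target, differed by -1.12 to 0.21, and the 1 beside the death receptor gene Tnfrsf10b by 0.67 ± 0.40. The lowest adjusted p in these windows was 0.28. The genes themselves rose by 1.40 (Phlda3), 2.49 (Trp53inp1), 1.76 (Btg2), 1.20 (Rps27l) and 2.08 (Tnfrsf10b). Thus 5 of the 7 genes with a region within 50 kb had no called lincRNA probe there. With 0.455% of all lincRNA probes called, no call among so few probes does not set these windows apart.

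For the remaining 15 genes the nearest region lay further off, from 71.9 kb for Ei24 to 810 kb for Pmaip1. The nearest regions to Mdm2 (87.3 kb), Gdf15 (480 kb) and Psrc1 (554 kb), genes that rose by 2.32, 4.23 and 3.97, had no called probe. In the Psrc1 window, A_30_P01023843 read 6.26 to 6.54 in controls and 6.79 to 7.50 in exposed thyroids, without overlap. Its difference of 0.78 ± 0.18 was not called here (limma adjusted p = 0.12) but was in the deposited values, where it was 0.66 (adjusted p = 0.036).

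The largest falls among bright probes, beside the one called, were in windows of Trp53inp1, Cdkn1a and Gdf15. A_30_P01021565, 949 kb from Trp53inp1, differed by -1.56 ± 0.51, with overlapping groups. A_30_P01020776, 799 kb from the same gene, differed by -1.48 ± 0.67, and S590 (2.81) lay far below the other exposed thyroids (5.27 to 5.68). A_30_P01024145, 141 kb from Cdkn1a, read 6.24 to 7.93 in controls and 5.87 to 6.15 in exposed thyroids, a difference of -1.09 ± 0.33. A_30_P01031437, 953 kb from Gdf15, differed by -0.99 ± 0.46. None of the 4 was called (limma adjusted p = 0.24 to 0.44).

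The p53 target genes and the lincRNA probes around them were set side by side. Of the 28 genes, 26 were called and all 26 were higher in the exposed thyroids, where 1.22% of 19964 RefSeq genes were called. The exceptions were Ccng1 (1.81, adjusted p = 0.058) and Apaf1 (1.54, adjusted p = 0.11). The genes were chosen with results of these arrays known, so their count is not independent evidence. All 22 genes with a lincRNA region nearby were called, and 5 of them had a called lincRNA probe. For Ephx1 and Gtse1, the called probes were those near background and the single fall, which lost the call in the deposited values. Across these 22 genes, the median log2 fold change of the surrounding lincRNA probes lay between -0.27 (Mgmt) and 0.40 (Mdm4). Its correlation with the gene's own log2 fold change was 0.30 (Pearson) and 0.29 (Spearman), a description across genes, between which 3 regions are shared. Gtse1, with a rise of 5.01, had 70 lincRNA probes in its window with a median of 0.16. Its own probe was well above background in 2 of the 4 controls, and the rise was 3.30 in the deposited values. Cdkn1a, with 3.83, had 37 probes with a median of 0.11, so its called run was not a property of the whole window.

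**Figure D4:**
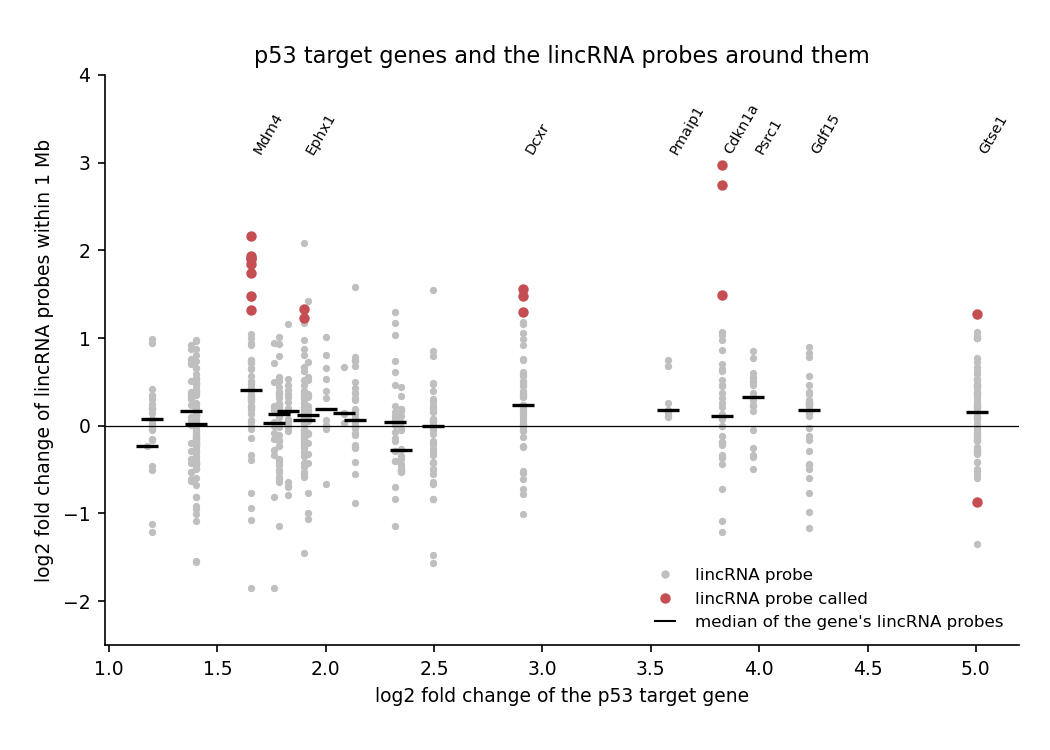
Log2 fold change of the lincRNA probes within 1 Mb of each of the 22 p53 target genes (grey, called in red) against the log2 fold change of the gene, with the median of each window as a bar. All 22 genes lie at 1.17 or above, and the medians lie between -0.27 and 0.40.

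The protein-coding genes around the same p53 targets were counted as well. Of 756 RefSeq genes within 1 Mb of a p53 target gene, 11 were called (1.46%), 8 higher and 3 lower, beside the background of 1.22%. In the deposited values 26 were called (3.44%, background 2.74%). Their median log2 fold change was -0.03. The largest were a rise of Cpt1c, a carnitine palmitoyltransferase gene 502 kb from Bax, by 3.23 ± 0.23, and a fall of Slc5a5, which encodes the sodium/iodide symporter and lies 254 kb from Gdf15, by 3.53 ± 0.41 on the log2 scale (limma adjusted p = 0.0028 and 0.014). The remaining called neighbours that rose were Arl8a, Fam46b, Homer3, Klhl26, Map3k6, Ptprv and Syngr4, and those that fell were Grp and Ptgir.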

How the data were processed

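One-colour Agilent arrays were made for 4 control and 4 exposed thyroids, grouped by the sample labels. The authors deposited scanner files with the intensity of each spot, made with Feature Extraction 10.7.3.1, and a table of log2 values. These log2 values, deposited by the authors, matched quantile-normalized median signals without background subtraction within 0.038. Background-subtracted signals were put on the log2 scale, quantile-normalized and compared with lmFit and eBayes (limma 3.58.1, R 4.3.3) over 55681 probes, with a threshold of 0.05 on the Benjamini-Hochberg adjusted p. Regions and strands were read from the probe descriptions and distances from mapped coordinates (mm9); distance is the gap from the region to the nearest probe of the gene. Of the 692 probes, 5 have no mapped position. The means over probes of each region strand were fitted likewise over 4622 strands. Genes were read by their brightest RefSeq probe. Sequences are those of the array files, and promoters those of RefSeq (GRCm38.p6).

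Where no array of a group read a probe well above background, its fold was given as a bound. For each dim array the larger of the probe's own signal and the faintest signal that counted as well above background was taken, and the mean of these was set against the mean of the brighter group. Named were all called probes, all regions within 50 kb, and the 5 largest rises and falls among probes well above background on the arrays of the brighter group; the Psrc1 probe was added because the deposited values called it. The genes, lists, members and alternatives were chosen with earlier results of these data known. The alternatives were other scaling, background corrections, the deposited values, outlier marks, a limit on dim probes, a variance trend, array weights, the methods' t-test, distance limits of 500 kb and 2 Mb, adjustment over lincRNA probes alone, the brightest probe of a strand or gene, and each array left out. The number of arrays limits the precision, and the spread is that between these 8 thyroids.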

Additional observations from a re-analysis of the deposited data

Results flagged for a closer look

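Among the 27 probes named by rule, 54 groups of 4 arrays were examined for 1 array apart from the other 3, and 6 were found, where chance flags about 1 in 20. Of the called probes, A_30_P01018313 beside Mdm4 read 7.73 in control 1 and 7.46 to 7.47 in the other controls, A_30_P01021594 beside Mdm4 read 9.52 in S589 and 10.3 to 10.4 in the other exposed thyroids, and A_30_P01026248 beside Mdm4 read 6.66 in S588 and 7.33 to 7.46 in the others. A_30_P01026107 in the Dcxr window read 8.85 in control 3 and 8.56 to 8.59 in the other controls, and A_30_P01024843 in the Gtse1 window, near background, read 3.01 in control 4 and 2.85 to 2.87 in the others. In each of these 5 probes the groups remained apart with the array in question. A_30_P01020776 in the Trp53inp1 window, not called, read 2.81 in S590 and 5.27 to 5.68 in the other exposed thyroids. No array was flagged more than once.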

How the results depend on the processing

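No paired analysis was possible because the numbers of the control and exposed thyroids are not shared. The count of 18 called lincRNA probes ran from 16 to 21 over the alternatives other than the methods' t-test (10), adjustment over lincRNA probes alone (12) and single arrays left out (2 to 12). The methods' t-test at its unadjusted threshold gave 80 of 692 probes (11.6%, and 12.5% of all probes). The 3 called region strands became 6 with array weights, 1 with the brightest probe of each strand, 0 with the methods' t-test and 0 to 2 with an array left out. The 11 called protein-coding neighbours became 22 with normexp, 26 without background correction, 26 in the deposited values, 19 with the filter on dim probes, 20 with a variance trend and 2 to 10 with an array left out. The 26 called p53 target genes became 13 to 25 with an array left out. With 75th percentile scaling, the median of the lincRNA probes near p53 target genes became 0.33. This scaling moved the median of all lincRNA probes to 0.31 and that of all probes to 0.16. With an array left out, the median near p53 target genes was 0.098 to 0.14. Of the 18 called probes, no direction turned, and 14 kept the call with normexp, without background correction and in the deposited values, where the 3 probes near background and the single fall lost it. The cause of these changes was not tested. Signal over background limits the dim probes.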
